A study of Mus musculus with 12 samples.

Results

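Hephaestin and the genes that move iron into, within and out of the cell were examined in cultured mouse proximal tubule (PT) cells labelled Tgfbr2fl/fl and Tgfbr2-/-, after the gene of the type II TGF-β receptor. The set held 10 genes of 25514 counted: the ferroxidases Heph and Cp, the exporter Slc40a1, the importers and reductase Slc11a2, Tfrc and Steap3, the ferritin subunits Fth1 and Ftl1, and the iron regulatory proteins Aco1 and Ireb2. Heph was selected on its normalized counts in the 2 genotypes, as the most completely lost abundant transcript in Tgfbr2-/- cells. Its difference between the genotypes is therefore given as a description without a test. The other 9 genes were listed by function, but with earlier results of these data known, so the list is not independent of them. All 10 were among the 12971 genes that passed the filter on low counts, Heph by its counts in the Tgfbr2fl/fl libraries alone. The other 9 had at least 124 counts in every library.

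The cells were conditionally immortalized and carried H2ts6, as the labels write it, in both genotypes, and they grew in medium with 2.5% FBS, transferrin and interferon gamma at 33 °C before a shift to 37 °C 5 days before the experiment. Tgfbr2-/- cells were made from floxed cells by adenoviral Cre in culture, and the labels give no more than 1 line per genotype, so loss of the receptor cannot be told apart from other differences between the lines. The methods state that interferon gamma was removed at the shift to 37 °C, and that cells were starved of serum for 24 h before H2O2. Each genotype was sequenced untreated in medium with serum and after 24 h of H2O2 in serum-free medium, with 3 libraries in each of 4 groups. The labels write the dose as 200 mM and the methods write it in µM. Because the untreated medium contained serum and transferrin, which carries iron, the effect of H2O2 cannot be told apart from that of the medium. Changes written below as those of H2O2 are therefore changes with H2O2 and the serum-free medium together. The methods state generally that in vitro work used 3 or more biological replicates or independent experiments, unless stated otherwise. They do not say of these libraries that replicates were separate cultures, so p-values measure the spread between these libraries.

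Iron crosses membranes as Fe2+ and is carried in plasma as Fe3+ on transferrin. Cells take up transferrin through the transferrin receptor (Tfrc), the reductase Steap3 turns Fe3+ into Fe2+ in the endosome, and Slc11a2 (DMT1) passes Fe2+ into the cytosol. Ferritin, a cage of heavy (Fth1) and light (Ftl1) chains, stores iron that is not in use. Ferroportin (Slc40a1) is the known iron exporter, and the multicopper ferroxidases hephaestin (Heph), which is anchored in the membrane, and ceruloplasmin (Cp) oxidize iron as it leaves. The iron regulatory proteins Aco1 and Ireb2 bind a hairpin in target mRNAs, the iron-responsive element, when iron is low. Binding in the 5′ UTR blocks translation of ferritin and ferroportin, and binding in the 3′ UTR protects the Tfrc mRNA from decay. In the kidney the PT reabsorbs filtered iron.

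Iron-responsive elements, the sites that Aco1 and Ireb2 are known to bind, were found in 4 of the 10 genes by a strict pairing rule. They are shown first because transcript counts can report decay but not translation. GENCODE M39 transcripts (GRCm39) were searched on the sense strand for the loop CAGTGN (N is any base) that follows a bulged C and 5 further bases, with those 5 bases paired to the 5 after the loop. Capitals mark the loop, and each line is 30 bases read 5′ to 3′.
Slc40a1, 5′ UTR: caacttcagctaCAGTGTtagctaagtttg
Fth1, 5′ UTR: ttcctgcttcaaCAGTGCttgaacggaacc
Ftl1, 5′ UTR: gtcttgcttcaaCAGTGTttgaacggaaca
Tfrc, 3′ UTR, site 1: aattatcggaagCAGTGCcttccataatta
Tfrc, 3′ UTR, site 2: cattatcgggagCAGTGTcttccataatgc
Tfrc, 3′ UTR, site 3: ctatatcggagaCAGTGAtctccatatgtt
Tfrc, 3′ UTR, site 4: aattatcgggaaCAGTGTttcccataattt
The paired pattern was found in 4 of the 10 genes and in 1.38% of the 21552 protein-coding genes searched. The letters without the pairing were in 9 of the 10 genes and in 67.1% of those searched. The rule misses a hairpin with imperfect pairing, so a gene not shown, such as Slc11a2, cannot be said to lack an element. Whether any site was bound was not measured.

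Libraries held between 15870155 and 20857618 gene counts. Tgfbr2 was counted in every library and its transcript was lower in Tgfbr2-/- cells than in Tgfbr2fl/fl cells, by a log2 fold change of -0.35 (SE 0.07, n = 3 and 3, adjusted p = 2.81e-05) untreated and -0.92 (SE 0.07, adjusted p = 6.62e-14) with H2O2. Its means were 8393 ± 843 and 6605 ± 220 normalized counts (SD, n = 3) in untreated Tgfbr2fl/fl and Tgfbr2-/- cells. These are counts over a whole transcript that do not check the deleted part, which was not examined here. The methods state that the authors verified the deletion with immunoblots and RNAseq. The first principal component held 81.5% of the variance. Of 17 PT markers only 6 reached a mean of 10 counts over the 12 libraries, led by the endocytic receptor Lrp2. The phosphate transporter Slc34a1 and the regulator Hnf4a had at most 2 and 1 counts in a library, so these cells carried the label of PT cells without most of its defining transcripts. Of 7 markers of the loop of Henle and distal nephron 0 reached that mean, though Slc4a1 had 14, 11 and 24 counts in the Tgfbr2-/- libraries with H2O2. Of 6 macrophage and leukocyte markers Adgre1 and C1qa were at 0 in every library, but 2 reached that mean. Csf1r had means of 868.2 and 718.5 normalized counts in untreated Tgfbr2fl/fl and Tgfbr2-/- cells, and Cd68 had 136.4 and 234.1. Podxl and Kdr were the only podocyte and endothelial markers to reach it. Both were higher in untreated Tgfbr2-/- cells, Podxl at 520.0 against 36.25 and Kdr at 507.3 against 128.8. The summed level of 5 epithelial markers was 12150 to 13890 normalized counts in untreated Tgfbr2fl/fl libraries and 31230 to 33910 in untreated Tgfbr2-/- libraries. Cdh16 held most of that sum, at means of 10310 against 21440. Cdh1, at 1.80 against 1111, and Epcam, at 0.371 against 664, were near 0 in untreated Tgfbr2fl/fl cells. The summed level of 6 fibroblast markers was 520 to 549 in untreated Tgfbr2fl/fl against 2366 to 2632 in untreated Tgfbr2-/- libraries, with Pdgfra, Col1a2 and Dcn under 10 counts. With H2O2 the fibroblast sum was 249 to 280 against 627 to 763. Of the 3 fibroblast markers above that mean, the contractile actin Acta2 was higher in untreated Tgfbr2-/- cells, at 2495 against 469 normalized counts, while Col1a1, at 14.3 against 42.0, and Pdgfrb, at 2.41 against 16.2, were lower there. The epithelial and fibroblast sums moved with the genotype, and the part of any of these lists in the results was not tested.

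Heph lies on chromosome X from 96455436 to 96574485 (GRCm38.p6). It was counted 1266, 1104 and 1095 times in the untreated Tgfbr2fl/fl libraries and 6, 6 and 7 times in the untreated Tgfbr2-/- libraries. With H2O2 the counts were 2061, 2076 and 1790 against 6, 2 and 4. Every Tgfbr2fl/fl library was thus above 1000 and every Tgfbr2-/- library below 10, and no single library carried the gap. As normalized counts (for a library of 17351835), the means were 1246 ± 78.6 and 2096 ± 46.7 in Tgfbr2fl/fl cells untreated and with H2O2, and 6.26 ± 0.446 and 3.70 ± 1.998 in Tgfbr2-/- cells (SD, n = 3 each). In bulk RNA fewer cells with the transcript and less of it per cell cannot be told apart.

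**Figure D1:**
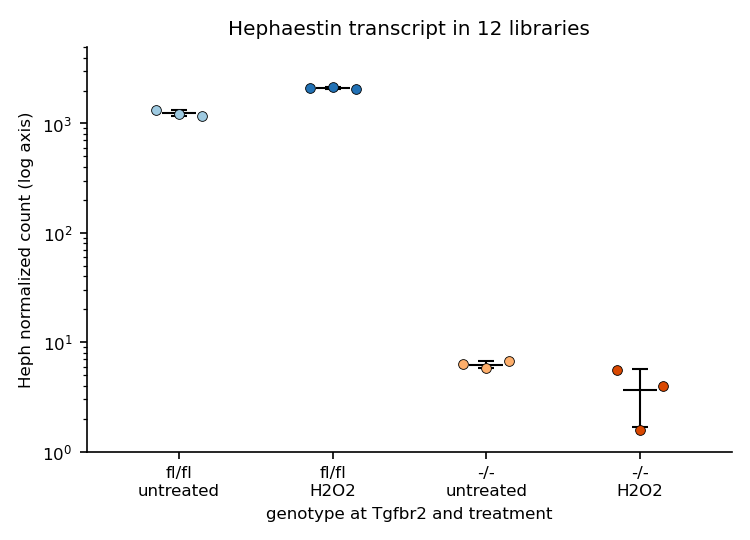
Normalized counts of Heph (log axis) in each of the 12 libraries by genotype and treatment, with points for libraries and bars for the mean ± SD of 3. The Tgfbr2fl/fl libraries lie between 1178 and 2144 and the Tgfbr2-/- libraries between 1.57 and 6.70, and the 3 Tgfbr2fl/fl libraries with H2O2 lie above the 3 untreated ones.

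Pooled over the 3 libraries, the untreated Tgfbr2-/- group held 19 Heph counts, with an exact Poisson interval of 11.4 to 29.7, and the H2O2 group held 12, with an interval of 6.20 to 21.0. The ratio of Tgfbr2fl/fl to Tgfbr2-/- was 199 untreated (95% interval 127 to 331) and 587 with H2O2 (336 to 1137). These intervals cover counting error only. They leave out the spread between replicates and the choice of Heph for this gap, so they do not serve as a test. The Tgfbr2-/- groups therefore held 0.502% and 0.170% of the Tgfbr2fl/fl level, a trace that was still counted in each of the 6 libraries. Among the 4214 genes with at least 1000 normalized counts in untreated Tgfbr2fl/fl cells, the next lowest share was that of the lysyl oxidase Lox at 0.975%. With H2O2, among 4169 such genes, the next was Plxdc2 at 0.771%.

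The H2O2 response of Heph in Tgfbr2fl/fl cells was not the difference it was chosen for and was tested. The levels of both Tgfbr2fl/fl groups did enter that choice, so the test is not fully separate from it. Heph rose by a log2 fold change of 0.75 (SE 0.06, adjusted p = 3.78e-11), a 1.68-fold increase, and the 3 H2O2 libraries lay above all 3 untreated ones. In Tgfbr2-/- cells the 3 H2O2 libraries, at 5.54, 1.57 and 3.98 normalized counts, lay below the untreated ones, at 6.27, 5.81 and 6.70, a difference of a few reads that is given without a test.

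All 5 annotated Heph transcripts that were counted showed both patterns. The full-length coding transcripts, each of 22 exons, had 3465 and 3332 counts over the 3 untreated Tgfbr2fl/fl libraries and 19 each over the untreated Tgfbr2-/- libraries. A shorter coding transcript of 16 exons had 2145 against 9, and 2 transcripts with retained introns had 1224 against 6 and 973 against 5. The ratio of H2O2 to untreated in Tgfbr2fl/fl cells was between 1.64 and 1.71 over the 5 transcripts. A read that overlaps several transcripts is counted on each, so these are not independent measurements.

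Among 8 neighbours of Heph within 1 Mb on chromosome X the loss was not shared to that degree. Upstream, the actin linker Msn had a log2 fold change between genotypes of -0.67 untreated, Las1l of -0.25 and Zc3h12b of -1.36, and with H2O2 the values were -0.57, 0.19 (adjusted p = 0.0326) and -0.69. Hsf3, whose annotated end overlaps the start of Heph, had 0 to 2 counts in a library, and Vsig4, Gpr165 and Pgr15l had none. Downstream, the receptor Eda2r had a log2 fold change of 0.21 untreated (adjusted p = 0.00252) and of -0.18 with H2O2 (adjusted p = 0.00823). Over the 376 tested genes of chromosome X the median log2 fold change was 0.03, with 127 genes higher and 111 lower in Tgfbr2-/- cells.

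**Figure D2:**
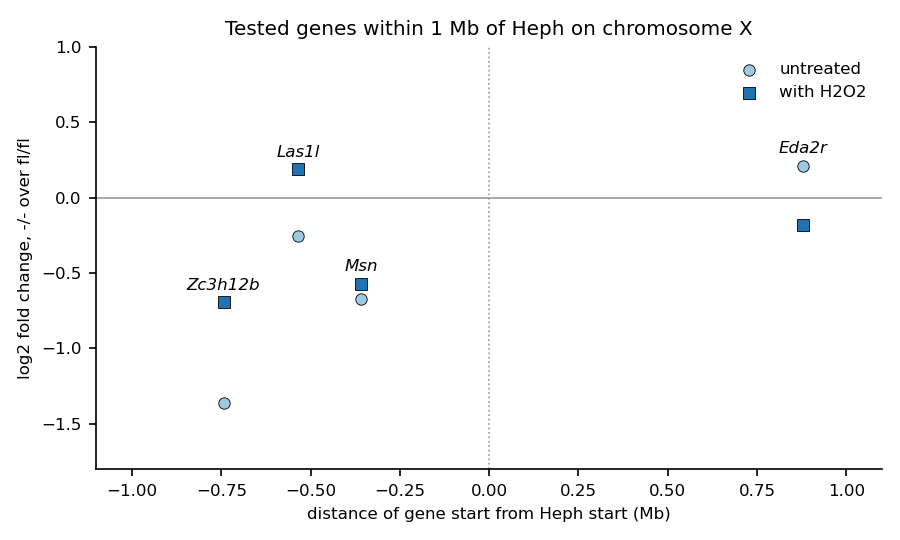
Log2 fold change of Tgfbr2-/- over Tgfbr2fl/fl cells, untreated (circles) and with H2O2 (squares), for the 4 tested genes among 8 neighbours of Heph within 1 Mb, against the distance of their start from the start of Heph in Mb. Zc3h12b is lowest at -1.36 untreated and Eda2r lies near 0; Heph itself, at a ratio of 199, is off this scale and not drawn.

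The genes whose log2 counts, scaled to library size, followed Heph most closely over the 12 libraries, of 12272 compared, were Ccdc80 (Pearson r = 0.999), the metalloproteinase Mmp16 (0.998), the cyclophilin Ppic (0.998), the receptor Ror1 (0.998) and the collagen Col4a1 (0.998). Heph counts split the libraries into 2 genotype clusters, so these values describe genes with the same gap and carry no p. Ccdc80 had 35890 ± 4049 normalized counts in untreated Tgfbr2fl/fl cells and kept 4450 ± 197 in untreated Tgfbr2-/- cells. Mmp16, which is rarer, had 67 to 131 counts in Tgfbr2fl/fl libraries and 0 to 2 in Tgfbr2-/- libraries.

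Levels between genes were compared per kb of transcript. In untreated Tgfbr2fl/fl cells the light and heavy ferritin chains led, with Ftl1 at 15700 ± 974 and Fth1 at 10240 ± 1021 normalized counts per kb (SD, n = 3). Cp followed at 1537 ± 85.7, Tfrc at 592 ± 34.0 and Ireb2 at 260 ± 22.99. Heph, at 200.3 ± 15.3, and Aco1, at 196 ± 13.4, did not differ beyond their spread. Slc11a2 stood at 156 ± 17.9, Slc40a1 at 66.5 ± 1.48 and Steap3, the lowest, at 25.8 ± 3.38. In untreated Tgfbr2-/- cells Heph was lowest of the 10 at 1.05 ± 0.0746 per kb, and the other ferroxidase Cp stood at 2239 ± 119. With H2O2 in Tgfbr2fl/fl cells Heph, at 337.5 ± 7.41, ranked above Ireb2 at 257 ± 9.88.

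Of the 9 genes apart from Heph, 4 were higher and 0 lower in untreated Tgfbr2-/- than in Tgfbr2fl/fl cells at an adjusted p under 0.05, while 64.7% of all genes tested passed, 33.3% higher and 31.4% lower. With H2O2, 4 were higher and 1 lower, against 66.4% of all genes, 35.1% higher and 31.3% lower. The median log2 fold change of the 9 was 0.21 untreated and 0.14 with H2O2, beside 0.01 and 0.02 over all genes. At the stricter limits of an unadjusted p under 0.01 and a fold of at least 1.5, 1 of the 9 passed untreated, against 27.0% of all genes, and 2 with H2O2, against 29.8%. The shares called in either direction lay below those over all genes tested, at both limits. The share called higher at an adjusted p under 0.05, 4 of only 9 genes in each comparison, lay above that over all genes.

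**Figure D3:**
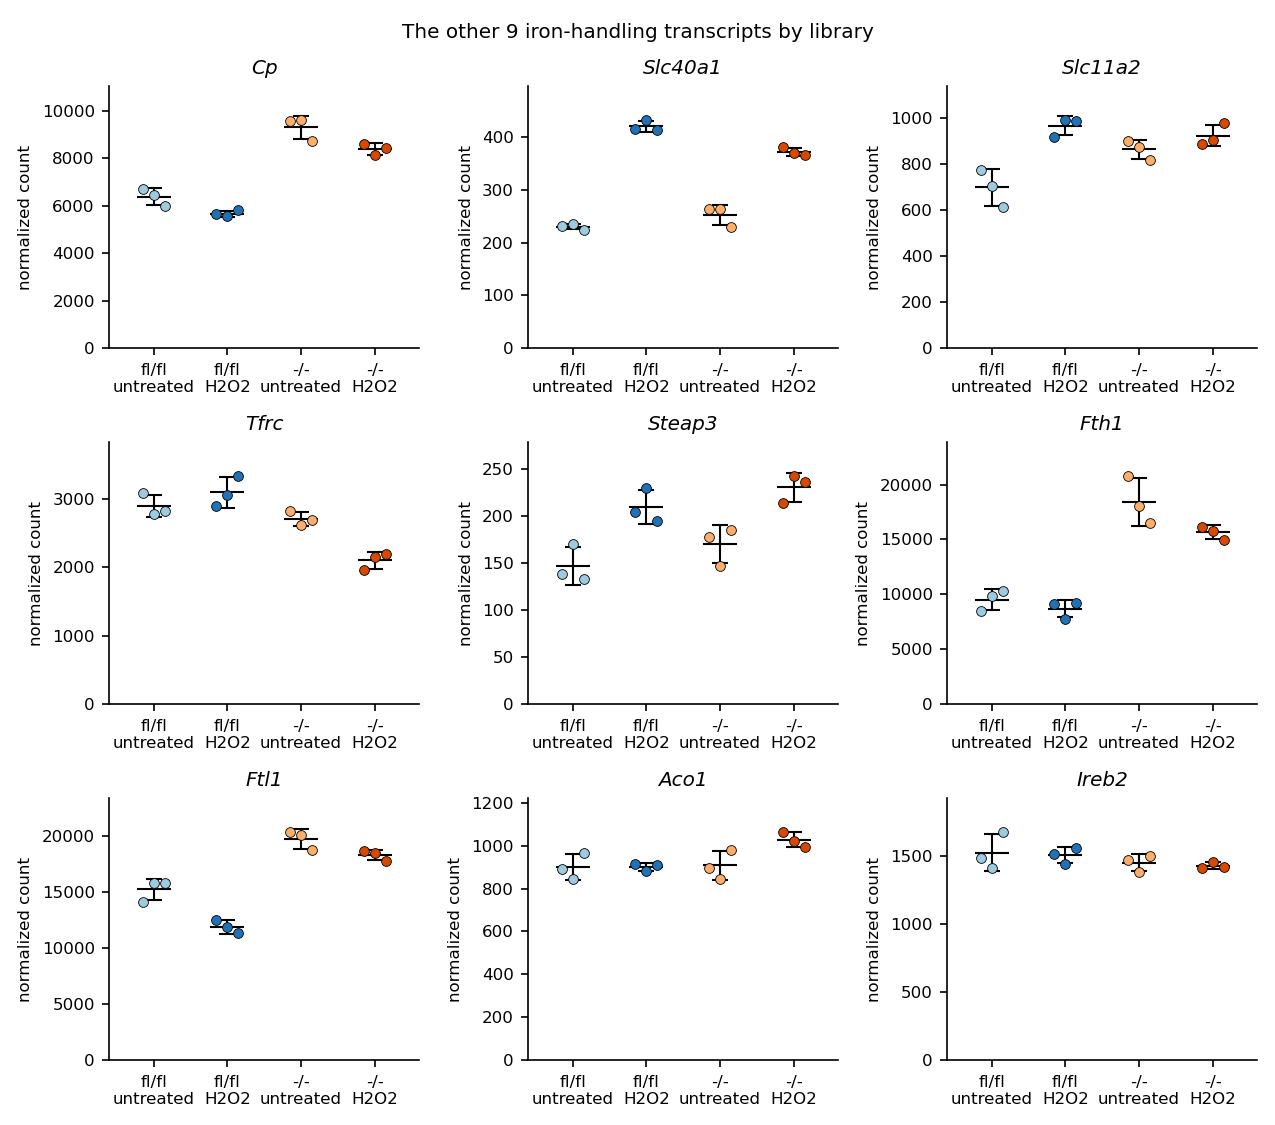
Normalized counts of the other 9 genes in each library, from 0, with points for libraries and bars for the mean ± SD of 3. Cp, Fth1 and Ftl1 are higher in all 6 Tgfbr2-/- libraries than in all 6 Tgfbr2fl/fl libraries, Slc40a1 and Steap3 are higher with H2O2 in both genotypes, and Tfrc is low only in the 3 Tgfbr2-/- libraries with H2O2.

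Cp, the ferroxidase that remained, had 6716, 6444 and 6009 normalized counts in untreated Tgfbr2fl/fl libraries and 9566, 9615 and 8736 in untreated Tgfbr2-/- libraries. With H2O2 it had 5653, 5555 and 5808 against 8612, 8141 and 8428. Cp was thus higher in every Tgfbr2-/- library, by a log2 fold change of 0.54 (SE 0.06, adjusted p = 3.38e-09) untreated and 0.57 (SE 0.06, adjusted p = 1.27e-09) with H2O2. The related ferroxidase gene Hephl1 had 0 to 3 counts in a library and was not tested. H2O2 lowered Cp slightly in Tgfbr2fl/fl cells, by -0.17 (SE 0.06, adjusted p = 0.0250), and the value in Tgfbr2-/- cells was -0.15 (SE 0.06, adjusted p = 0.0516), which passed in 4 of 13 alternatives: with the size factors of DESeq2 or its own test, with the 2 groups alone, and without Tgfbr2-/- untreated replicate 3 (adjusted p 0.00805 to 0.0494). The call in Tgfbr2fl/fl cells was lost when counts were summed over transcripts (-0.05, adjusted p = 0.541), in the fit of the 2 groups alone (adjusted p = 0.064), and without untreated replicate 1 or 2 or any 1 of the 3 H2O2 libraries (adjusted p up to 0.120). The longer transcripts Cp-204 and Cp-205 had 5452, 4775 and 4844 counts untreated and 5379, 5220 and 4829 with H2O2.

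Slc40a1, the iron exporter, was not called between the genotypes. It had 231, 235 and 225 normalized counts in untreated Tgfbr2fl/fl libraries and 265, 263 and 230 in untreated Tgfbr2-/- libraries, ranges that overlapped. With H2O2 it had 416, 433 and 415 against 381, 371 and 366, so that the Tgfbr2-/- libraries lay below (log2 fold change -0.18, SE 0.08, adjusted p = 0.0525). That value passed in 4 of 13 alternatives, with adjusted p from 0.0310 to 0.0375: with the size factors of DESeq2, with the 2 groups alone, and without Tgfbr2fl/fl H2O2 replicate 1 or 3. H2O2 raised Slc40a1 in both genotypes, by 0.87 (SE 0.09, adjusted p = 1.44e-09) in Tgfbr2fl/fl and 0.56 (SE 0.08, adjusted p = 2.90e-06) in Tgfbr2-/- cells, and the difference between these responses did not pass (-0.31, 95% interval -0.55 to -0.07, adjusted p = 0.106).

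The importers differed from each other. Slc11a2 had 773, 706 and 614 normalized counts in untreated Tgfbr2fl/fl libraries, 917, 990 and 988 with H2O2, 898, 874 and 816 in untreated Tgfbr2-/- libraries, and 888, 904 and 977 with H2O2. The untreated Tgfbr2fl/fl libraries lay below all 9 others. Slc11a2 was accordingly higher in untreated Tgfbr2-/- cells (0.31, SE 0.08, adjusted p = 6.29e-04), and rose with H2O2 in Tgfbr2fl/fl cells (0.47, SE 0.07, adjusted p = 7.23e-06). In Tgfbr2-/- cells its H2O2 value was 0.10 (SE 0.07, adjusted p = 0.298).

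Tfrc showed the opposite arrangement. It had 3089, 2786 and 2817 normalized counts in untreated Tgfbr2fl/fl libraries, 2898, 3053 and 3333 with H2O2, and 2825, 2616 and 2686 in untreated Tgfbr2-/- libraries. In the Tgfbr2-/- libraries with H2O2 it had 1958, 2147 and 2195, below all 9 others. Tfrc fell with H2O2 in Tgfbr2-/- cells (-0.37, SE 0.06, adjusted p = 2.67e-05), while the value in Tgfbr2fl/fl cells was 0.09 (SE 0.06, adjusted p = 0.241). The genotypes differed with H2O2 (-0.56, SE 0.06, adjusted p = 3.35e-09) and were not told apart untreated (-0.10, 95% interval -0.22 to 0.03, adjusted p = 0.179).

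Steap3 was the least abundant of the 10 in Tgfbr2fl/fl cells. It had 138, 170 and 133 normalized counts in untreated and 204, 229 and 195 in H2O2 Tgfbr2fl/fl libraries, and 178, 147 and 185 against 213, 242 and 236 in Tgfbr2-/- libraries. It rose with H2O2 in both, by 0.51 (SE 0.12, adjusted p = 0.00110) and 0.44 (SE 0.11, adjusted p = 0.00261). Between genotypes it was not called, with 95% intervals of -0.04 to 0.45 untreated and -0.08 to 0.36 with H2O2. Untreated, it passed without Tgfbr2fl/fl replicate 2 (0.32, adjusted p = 0.0459) or Tgfbr2-/- replicate 2 (0.30, adjusted p = 0.0493).

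Both ferritin chains were higher in Tgfbr2-/- cells. Fth1 had 8474, 9802 and 10310 normalized counts in untreated Tgfbr2fl/fl libraries and 20770, 18020 and 16480 in untreated Tgfbr2-/- libraries, a log2 fold change of 0.95 (SE 0.08, adjusted p = 4.66e-12), the largest of the 9. With H2O2 it had 9089, 7791 and 9182 against 16180, 15800 and 14940 (0.85, SE 0.08, adjusted p = 6.11e-11). Ftl1 had 14130, 15760 and 15760 against 20310, 20060 and 18710 untreated (0.37, SE 0.07, adjusted p = 1.03e-05), and 12520, 11820 and 11280 against 18630, 18430 and 17740 with H2O2 (0.62, SE 0.07, adjusted p = 7.33e-10). No Tgfbr2fl/fl library reached the lowest Tgfbr2-/- library for either chain.

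H2O2 lowered Ftl1 in Tgfbr2fl/fl cells (-0.36, SE 0.07, adjusted p = 5.73e-05), and in Tgfbr2-/- cells its value was -0.11 (SE 0.07, adjusted p = 0.196). The difference between these responses was 0.25 (adjusted p = 0.0837) and passed in 2 of 18 alternatives, the DESeq2 test (adjusted p = 0.0348) and without Tgfbr2fl/fl untreated replicate 1 (adjusted p = 0.0382). For Fth1 the values were -0.13 (adjusted p = 0.190) and -0.24 (SE 0.08, adjusted p = 0.0183), and the second was lost without Tgfbr2-/- untreated replicate 1 (-0.14, adjusted p = 0.191) or H2O2 replicate 3 (-0.20, adjusted p = 0.0888), while the first passed without Tgfbr2fl/fl untreated replicate 1 (-0.20, adjusted p = 0.0344). The ratio of Fth1 to Ftl1 counts was 0.600 to 0.654 in untreated Tgfbr2fl/fl libraries and 0.881 to 1.02 in untreated Tgfbr2-/- libraries. With H2O2 it was 0.659 to 0.814 and 0.842 to 0.868. Each of the 4 comparisons between 2 groups gave a two-sided exact permutation p of 0.1, the smallest that 3 against 3 libraries allow, and an adjusted p of 0.1. The transcripts that stand for Fth1 and Ftl1 are not coding ones, but coding transcripts held nearly the same counts. In untreated Tgfbr2fl/fl libraries the coding Fth1-201 had 8037, 8793 and 9569 counts, beside 8055, 8809 and 9583. The coding Ftl1-201 had 13425, 14160 and 14653, beside 13432, 14160 and 14654. Both genes have near-identical pseudogene copies, so how reads were shared among these copies is uncertain.

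The iron regulatory proteins varied little. Ireb2 had group means between 1432 ± 24.2 and 1528 ± 135 normalized counts and was called in 0 of the 4 comparisons between groups by edgeR or by DESeq2, with edgeR's unadjusted p from 0.240 to 0.776 and 95% intervals within -0.20 and 0.11. Aco1 had 892, 842 and 965 normalized counts in untreated and 913, 880 and 911 in H2O2 Tgfbr2fl/fl libraries, and 897, 845 and 980 against 1063, 1023 and 994 in Tgfbr2-/- libraries. It was highest in the Tgfbr2-/- libraries with H2O2, above Tgfbr2fl/fl cells with H2O2 (0.19, SE 0.07, adjusted p = 0.0140) and above untreated Tgfbr2-/- cells (0.18, SE 0.07, adjusted p = 0.0324). The first call was lost on sums over transcripts (adjusted p = 0.0519) and without any 1 of the 3 Tgfbr2fl/fl H2O2 libraries or Tgfbr2-/- H2O2 replicate 1 (adjusted p 0.0607 to 0.101). The second was lost without Tgfbr2-/- untreated replicate 1 or 2 or H2O2 replicate 1 or 2 (adjusted p 0.0680 to 0.187).

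**Figure D4:**
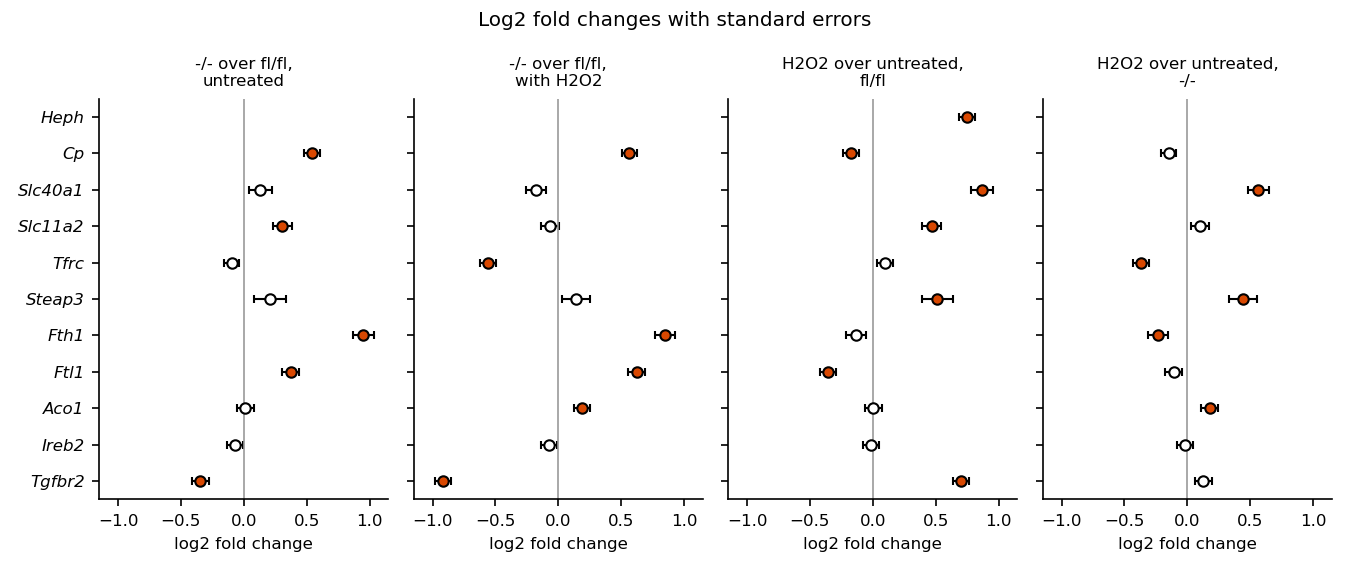
Log2 fold change with its standard error for the 10 genes and Tgfbr2 in each comparison between 2 groups (n = 3 against 3), filled where the adjusted p was under 0.05. Heph is drawn for H2O2 in Tgfbr2fl/fl cells only, at 0.75, since its other differences were used to choose it; Fth1 at 0.95 and 0.85 is the farthest right in the genotype panels.

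Counted over the genes, H2O2 in Tgfbr2fl/fl cells raised 4 of the 10 (Heph, Slc40a1, Slc11a2 and Steap3) and lowered 2 (Cp and Ftl1), where 41.6% of all genes tested were called, 21.0% higher and 20.5% lower. In Tgfbr2-/- cells 3 of the 9 apart from Heph rose (Slc40a1, Steap3 and Aco1) and 2 fell (Tfrc and Fth1), where 39.6% of all genes were called, 20.5% higher and 19.1% lower. Both the genotype and the H2O2 comparisons share libraries, so these counts are not independent of each other. Without Tgfbr2-/- untreated replicate 1, 3 of the 9 were called in Tgfbr2-/- cells.

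The responses to H2O2 differed between genotypes for 2 of the 9 genes, both downward in Tgfbr2-/- cells, where 10.2% of all genes were called by this test of the difference, 3.90% upward and 6.28% downward. For Tfrc the response in Tgfbr2-/- cells was lower than in Tgfbr2fl/fl cells by -0.46 on the log2 scale (SE 0.09, adjusted p = 8.56e-04), and it passed in each of the 18 alternatives (adjusted p at most 0.00776). For Slc11a2 the difference was -0.37 (SE 0.10, adjusted p = 0.0187). It was lost on sums over transcripts (adjusted p = 0.0596) and without Tgfbr2-/- untreated replicate 1 or Tgfbr2-/- H2O2 replicate 1 or 2 (adjusted p 0.0523 to 0.0651).

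The wider iron system was described with 101 other genes in 8 roles, of which 100 were counted and 89 tested. Between untreated genotypes 41 of the 89 were higher and 24 lower in Tgfbr2-/- cells (64.7% of all genes were called), and with H2O2 42 were higher and 24 lower (66.4%). Their median log2 fold change was 0.17 untreated and 0.15 with H2O2. Genes such as Scara5, Flvcr2, Atp7b and Prom2, described below, passed the filter on low counts only through Tgfbr2-/- libraries. They are counted here as higher, but their genotype differences are not separate from that filter. With H2O2 in Tgfbr2fl/fl cells 21 rose and 18 fell (21.0% and 20.5% of all genes), and in Tgfbr2-/- cells 12 rose and 24 fell (20.5% and 19.1% of all genes), with median log2 fold changes of -0.015 and -0.025. Transferrin itself (Trf), the second transferrin receptor Tfr2, the duodenal reductase Cybrd1, the hormone hepcidin (Hamp) and its coreceptor Hjv had 0 to 3 counts in a library and were not tested.

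**Figure D5:**
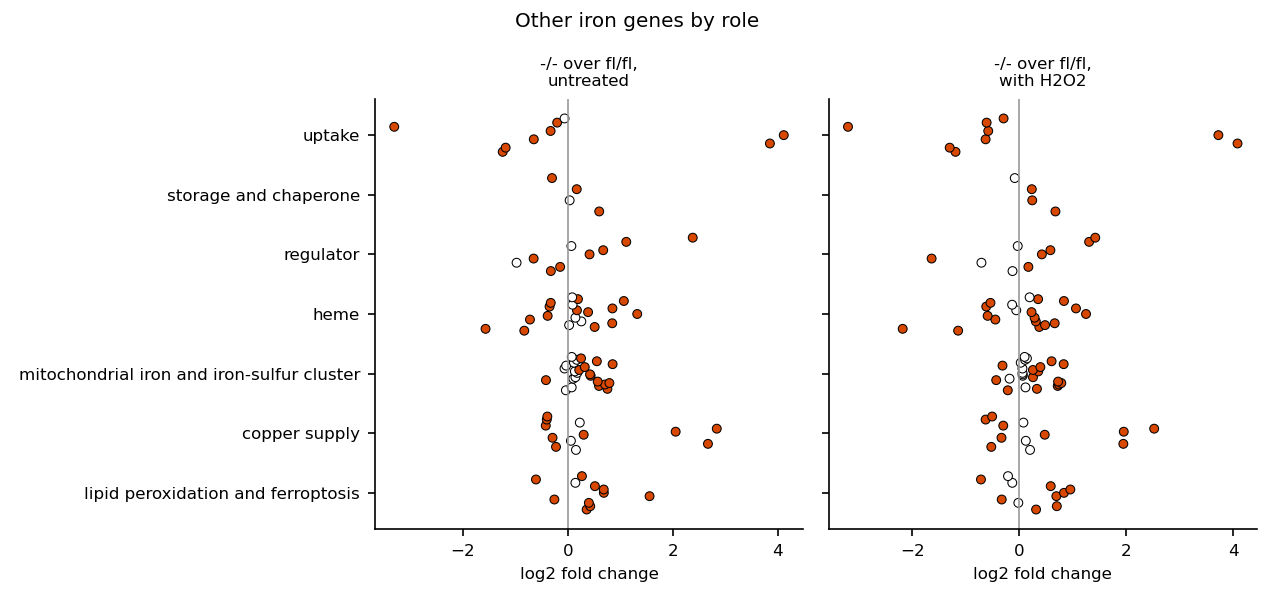
Log2 fold change of Tgfbr2-/- over Tgfbr2fl/fl cells untreated (left) and with H2O2 (right) for the other iron genes by role, filled where the adjusted p was under 0.05; 88 of the 89 tested genes are drawn, since Prom2 had no count in Tgfbr2fl/fl cells. Lcn2 and Scara5 lie farthest right among the uptake genes and Slc39a8 farthest left at -3.31 and -3.20.

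Among the uptake genes 2 were higher and 6 lower in untreated Tgfbr2-/- cells, and with H2O2 2 were higher and 7 lower of 9 tested. Of all genes 33.3% were higher and 31.4% lower untreated, and 35.1% and 31.3% with H2O2, the shares beside which the counts of each role stand. Slc39a8 (ZIP8), a transporter of zinc, manganese and iron not bound to transferrin, had 364, 291 and 337 counts in untreated Tgfbr2fl/fl libraries and 26, 40 and 43 in untreated Tgfbr2-/- libraries (-3.31, SE 0.15, adjusted p = 4.40e-19). Lcn2, which binds iron-loaded siderophores and marks tubular injury, went the other way, with 5, 11 and 5 counts against 110, 98 and 127 (3.85, SE 0.25, adjusted p = 8.13e-15). Scara5, a receptor for ferritin, had 1, 0 and 0 counts against 11, 9 and 5, and with H2O2 3, 0 and 4 against 36, 39 and 40. H2O2 raised Lcn2 by 1.20 in Tgfbr2-/- cells (SE 0.13, adjusted p = 1.09e-08) and by 0.96 in Tgfbr2fl/fl cells (SE 0.39, adjusted p = 0.0448, a call lost in 5 of 12 alternatives). It lowered the transporter Slc39a14 by -0.47 in Tgfbr2-/- cells (SE 0.07, adjusted p = 1.02e-06) and by -0.22 in Tgfbr2fl/fl cells (adjusted p = 0.00683, a call lost in 4 of 13 alternatives). Neither difference between the responses passed, with adjusted p of 0.804 for Lcn2 and 0.0830 for Slc39a14.

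Of 4 storage and chaperone genes 2 were higher and 1 lower in untreated Tgfbr2-/- cells (33.3% and 31.4% of all genes). Ncoa4, the receptor that takes ferritin to the lysosome, had 634, 554 and 644 counts against 943, 1020 and 1059 (0.60, SE 0.07, adjusted p = 5.81e-09). With H2O2 its log2 fold change between genotypes was 0.68 (SE 0.07, adjusted p = 4.86e-10). The iron chaperone Pcbp2 was higher by 0.17 (SE 0.06, adjusted p = 0.00877), and Pcbp3, a related RNA-binding protein, was lower by -0.30 (SE 0.09, adjusted p = 0.00289). H2O2 lowered Pcbp1 in Tgfbr2fl/fl cells by -0.38 (SE 0.07, adjusted p = 4.03e-05) and in Tgfbr2-/- cells by -0.17 (SE 0.07, adjusted p = 0.0480, a call lost in 7 of 13 alternatives).

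Of 9 regulators 4 were higher and 3 lower untreated (33.3% and 31.4% of all genes). Nfe2l2 (NRF2), a factor that drives ferritin and antioxidant genes, was higher by 1.11 (SE 0.06, adjusted p = 1.06e-16) and by 1.31 with H2O2 (SE 0.06, adjusted p = 1.02e-18). Its DNA motif TGACNNNGC, searched on both strands, was in 0 of the 13 promoters given for 7 of the 10 genes (RefSeq, GRCm38.p6, 250 bases before to 50 after a start) and in 12.4% of the 32851 promoters of the table; no promoter was given for Heph, Slc40a1 or Slc11a2. The SMAD motif GTCTAGAC was likewise in 0 of the 13 and in 0.213% of all. At these shares 0 of only 13 promoters cannot show whether either factor acts on the genes. Sites outside this window were not searched. Erfe, the erythroid hormone that lowers hepcidin, had 637, 633 and 667 counts in untreated and 865, 899 and 737 in H2O2 Tgfbr2fl/fl libraries, and 453, 484 and 406 against 304, 354 and 296 in Tgfbr2-/- libraries. It was lower in Tgfbr2-/- cells by -0.65 (SE 0.08, adjusted p = 7.75e-09) untreated and by -1.64 (SE 0.08, adjusted p = 2.38e-18) with H2O2. Hfe, a partner of the transferrin receptors, was higher by 0.67 (SE 0.23, adjusted p = 0.0109), a call lost without Tgfbr2fl/fl replicate 3 (adjusted p = 0.0900) or Tgfbr2-/- replicate 1 (adjusted p = 0.122).

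Of 19 heme genes 8 were higher and 6 lower untreated (33.3% and 31.4% of all genes). The porphyrin exporter Abcg2 had 1045, 1001 and 888 counts against 329, 397 and 354 (-1.57, SE 0.08, adjusted p = 2.59e-18) and was lower by -2.18 with H2O2 (SE 0.08, adjusted p = 7.60e-22). The endosomal heme transporter Slc48a1 was higher by 1.07 (SE 0.06, adjusted p = 2.66e-16). Flvcr2 was higher by 1.32 at means of 11.9 and 4.68 normalized counts (adjusted p = 0.0222), a call lost without Tgfbr2fl/fl replicate 3 or Tgfbr2-/- replicate 1 or 3 (adjusted p 0.0612 to 0.130). With H2O2 the heme synthesis gene Ppox rose by 0.79 in Tgfbr2fl/fl cells (SE 0.08, adjusted p = 1.69e-09) and 0.57 in Tgfbr2-/- cells (SE 0.08, adjusted p = 6.07e-07), while Cpox, the enzyme before it, fell in Tgfbr2fl/fl cells by -0.64 (SE 0.06, adjusted p = 1.96e-10) and in Tgfbr2-/- cells by -0.36 (SE 0.06, adjusted p = 9.31e-06).

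Of 24 genes of mitochondrial iron and iron-sulfur clusters 12 were higher and 1 lower untreated, 54.2% called beside 64.7% of all genes, of which 33.3% were higher and 31.4% lower. The cluster scaffold Iscu was higher by 0.85 (SE 0.09, adjusted p = 3.60e-10), Ciapin1, of the cytosolic assembly machinery, by 0.79 (SE 0.06, adjusted p = 1.49e-12), and the mitochondrial transporter Abcb8 by 0.75 (SE 0.08, adjusted p = 3.16e-10). With H2O2 11 were higher and 3 lower, among them Ciao2b, another member of the cytosolic machinery, at 0.75 (SE 0.06, adjusted p = 1.93e-12). H2O2 lowered the ferredoxin Fdx1 in Tgfbr2-/- cells by -0.80 (SE 0.17, adjusted p = 2.75e-04) and in Tgfbr2fl/fl cells by -0.52 (SE 0.17, adjusted p = 0.0154). The second call was lost without Tgfbr2fl/fl untreated replicate 3 (adjusted p = 0.102) or H2O2 replicate 2 (adjusted p = 0.0998).

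Hephaestin and ceruloplasmin carry copper, and of 12 genes of copper supply 4 were higher and 5 lower untreated (33.3% and 31.4% of all genes). The metallothioneins Mt1 and Mt2, which bind copper and zinc, were higher by 2.05 (SE 0.07, adjusted p = 4.71e-22) and 2.84 (SE 0.10, adjusted p = 1.26e-21). Mt1 had 1061, 1271 and 1113 counts in untreated Tgfbr2fl/fl libraries against 5001, 5630 and 4987. The copper pump Atp7b, which loads ceruloplasmin in the liver, had 7, 6 and 3 counts against 35, 41 and 37 (2.67). It passed the filter on low counts only through its Tgfbr2-/- libraries. That value is therefore a description without a test, though Atp7b is among the 4 counted as higher. H2O2 raised the related pump Atp7a in Tgfbr2fl/fl cells by 0.48 (SE 0.08, adjusted p = 5.55e-06; 0.19 in Tgfbr2-/- cells, adjusted p = 0.0509) and Mt1 in both genotypes, by 0.56 (SE 0.07, adjusted p = 2.27e-07) and 0.47 (SE 0.07, adjusted p = 1.27e-06).

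Of 12 genes of lipid peroxidation and ferroptosis, the form of cell death that depends on iron, 9 were higher and 2 lower untreated (33.3% and 31.4% of all genes), and 7 were higher and 2 lower with H2O2 (35.1% and 31.3%). Prom2, which sends ferritin out of the cell in vesicles, had 0 counts in all 6 Tgfbr2fl/fl libraries and 72 to 102 in the Tgfbr2-/- libraries. Against a floor of 3 counts per library it was at least 25.7-fold higher in untreated Tgfbr2-/- cells and at least 25.3-fold higher with H2O2. Gch1, which makes the antioxidant tetrahydrobiopterin, was higher by 1.56 untreated (SE 0.33, adjusted p = 1.21e-04), and Gclc and Gclm, the subunits of the enzyme that starts glutathione synthesis, were higher with H2O2 by 0.84 (SE 0.06, adjusted p = 7.49e-14) and 0.96 (SE 0.07, adjusted p = 3.64e-14). H2O2 lowered Gclc in both genotypes, by -1.63 (SE 0.06, adjusted p = 1.32e-19) in Tgfbr2fl/fl and -1.47 (SE 0.06, adjusted p = 4.95e-19) in Tgfbr2-/- cells. Of the 89 wider genes, 9 differed between genotypes in their response to H2O2 (10.2% of all genes), 3 upward and 6 downward in Tgfbr2-/- cells.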

How the data were processed

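RNA of 12 libraries, 3 in each of 4 groups, was sequenced from stranded mRNA libraries. The authors removed adapters with fastp, aligned reads with STAR to GRCm38.p6 and counted them with featureCounts. What they deposited are raw counts for each transcript, not normalized, although tests were designed for gene counts. Of 106332 transcripts, 104820 matched GENCODE M39 by identifier; the other 1512 held 1.22% to 1.28% of a library's counts and were left out. The transcript with the highest total stood for its gene, which gave 25514 genes. Counts were tested in R 4.3.3 with edgeR 4.0.16 (TMM, filterByExpr, glmQLFit and glmQLFTest on 4 group means) and Benjamini-Hochberg adjustment over 12971 genes. Fold changes are on the log2 scale, the SE is their absolute value over the root of F, and normalized counts are rounded to 4 digits. The lengths behind levels per kb are those of the shortest coding transcript with at least 95% of the representative's counts, a rule set after the counts were seen, as was the pairing rule of the hairpin search. Alternatives were DESeq2 1.42.0 and its size factors, no filter, at least 10 counts in every library, the replicate number as a block, the compared groups alone, sums over transcripts, and leaving out each library.

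The 10 genes and the wider lists were chosen with earlier results of these data known. Genes named from the wider lists are up to 3 per role and comparison with the largest change among those called with a mean of at least 10 counts; genes with a difference in H2O2 response and untested genes were named beside them. Some genes that meet the rule are not reported here, neighbours of Heph beyond 1 Mb among them. Replicates differed by more than sampling noise, with a chi-square per gene of 3.58 to 12.0. The fits were tested on simulated counts. Figures were drawn with matplotlib 3.10.9 in Python 3.11.15.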

Additional observations from a re-analysis of the deposited data

Results flagged for a closer look

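The response to H2O2 differed between the genotypes by a test of the difference itself (edgeR's interaction term, adjusted p under 0.05) for 2 of the 9 genes apart from Heph. The response of Tfrc in Tgfbr2-/- cells less that in Tgfbr2fl/fl cells was -0.46 on the log2 scale and that of Slc11a2 was -0.37, as described above.

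Among the 89 wider iron genes 9 met the same test. For Erfe, the hormone that lowers hepcidin, the difference was -0.98 (SE 0.11, adjusted p = 3.11e-07), with a rise of 0.34 in Tgfbr2fl/fl cells (adjusted p = 3.31e-04) and a fall of -0.64 in Tgfbr2-/- cells (adjusted p = 2.61e-07). For the porphyrin exporter Abcg2 it was -0.61 (adjusted p = 3.34e-04), with a response of 0.10 in Tgfbr2fl/fl cells (adjusted p = 0.263) and -0.51 in Tgfbr2-/- cells (adjusted p = 1.58e-05). For the metalloreductase Steap1 it was -0.40 (adjusted p = 0.00317), with responses of 0.14 (adjusted p = 0.0662) and -0.26 (adjusted p = 0.00153). For the mitochondrial transporter Abcb8 it was -0.42 (adjusted p = 0.00945), with responses of 0.44 and 0.02. For Alas1, which starts heme synthesis, it was 0.46 (adjusted p = 0.00435), with responses of -0.31 and 0.15.

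The other 4 were less settled: Bmp6 at 0.32 (adjusted p = 0.0185), Cpox at 0.28 (adjusted p = 0.0277), Abcb10 at -0.31 (adjusted p = 0.0278) and the cystine transporter Slc7a11 at -0.48 (adjusted p = 0.0273) each lost the call without 1 of several libraries. Their adjusted p without a library rose to 0.124 for Bmp6, 0.109 for Cpox, 0.0874 for Abcb10 and 0.0934 for Slc7a11.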

How the results depend on the processing

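Of 666 values of the 10 genes under the alternatives, 610 kept their direction and, where tested, their side of the threshold. Another 22 lost a call, 13 gained one and 21 changed sign, none of the last a called value. The 610 include the untested genotype ratios of Heph, 12 untreated and 12 with H2O2. The ratio of Heph between genotypes moved by less than the spread between replicates in each of 12 alternatives; a minimum of 10 counts in every library leaves Heph out. The genotype differences of Cp, Fth1 and Ftl1, the rise of Heph in Tgfbr2fl/fl cells and of Slc40a1 and Steap3 with H2O2, and the calls of Tfrc held in each alternative. Of 1208 values of the named wider genes, 1133 kept theirs and 75 lost a call.

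Under the study's limits the genes called, of all tested, fell from 8387 to 3507 untreated, from 8617 to 3860 with H2O2, from 5392 to 981 for H2O2 in Tgfbr2fl/fl cells, from 5135 to 1008 in Tgfbr2-/- cells and from 1321 to 357 for the interaction. On sums over transcripts the interaction was called for 1 of the 9 genes, not 2, and with DESeq2 for 14 of the 89 wider genes, not 9. Leaving out each library in turn gave 1 to 3 of the 9 genes, 6 to 15 of the wider genes and 833 to 1680 of all genes for the interaction, and 3 to 6 of the 9 genes for H2O2 in Tgfbr2-/- cells. The interaction lost 1 of its 2 calls without Tgfbr2-/- untreated replicate 1 or Tgfbr2-/- H2O2 replicate 1 or 2, and the wider count of 15 came without Tgfbr2fl/fl untreated replicate 1; the cause was not tested.

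Values near 0 changed sign. Without filter the Aco1 response in Tgfbr2fl/fl cells was -0.00706 and the Ireb2 interaction 0.00695; with the compared groups alone the Aco1 response was -0.000411; on sums over transcripts the Cp and Ireb2 interactions were -0.0118 and 0.00475. Leaving out a library moved Aco1 between -0.0473 and 0.0612 for the untreated genotypes and between -0.0365 and 0.0595 for H2O2 in Tgfbr2fl/fl cells, Ireb2 between -0.0641 and 0.0583 there, between -0.0571 and 0.00304 for H2O2 in Tgfbr2-/- cells and between -0.0982 and 0.0241 for the interaction, and the Cp interaction between -0.0423 and 0.0482.

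The replicate number did not pair the libraries: over 18 pairs of groups' same-numbered libraries the correlation of deviations was -0.101 to 0.058, above 0.1 in 0, and 2 of 12 libraries correlated best with their own number. With the replicate block 4, 5, 6, 5 and 2 of the genes were called in the 5 comparisons, the counts without it; of the named genes only Pcbp1, for H2O2 in Tgfbr2-/- cells, lost a call (adjusted p = 0.059). The Heph response within Tgfbr2-/- cells rests on a few reads and was not tested.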
